A study of Mus musculus with 6 samples.

Results

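The MHC class I pathway lets a cell show fragments of its own proteins to CD8 T cells, and 10 of its genes were followed here in metastases that 4T1 cells, a line from a mouse mammary carcinoma, formed in the liver. They are the rows of the count table, 24167 genes in all, whose symbol is H2-K1, H2-D1, B2m, Tap1, Tap2, Tapbp, Psmb8, Psmb9, Psmb10 or Nlrc5, and each symbol matched 1 row. The injected cells carried a lentiviral pLKO.1 hairpin under puromycin selection, either a scrambled sequence (shSCR) or one against Zdhhc17 (shZdhhc17), a gene for an enzyme that attaches palmitate to proteins. Female BALB/c mice aged 6 to 8 weeks received 500000 cells by hydrodynamic injection into the tail vein, and metastases were dissected on day 10 for sequencing of polyadenylated RNA, with 3 libraries per group. Host liver and immune cells in the dissected tissue carry neither hairpin, and the labels do not state whether each library is a single mouse, so the p-values speak only of variation among these 6 libraries. In such bulk RNA, fewer cells of a type and less RNA per cell cannot be told apart.

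Peptides for class I molecules are cut by the proteasome, in which Psmb8, Psmb9 and Psmb10 can take the place of the constitutive catalytic subunits Psmb5, Psmb6 and Psmb7 to form the immunoproteasome. The transporter of Tap1 and Tap2 carries the peptides into the endoplasmic reticulum, where Tapbp (tapasin) helps load them onto a heavy chain such as H2-K1 or H2-D1 paired with beta-2 microglobulin (B2m). Nlrc5 is a transactivator that acts on class I promoters together with RFX, CREB/ATF and NF-Y proteins, and interferon gamma induces most of the pathway. Hepatocytes express class I molecules at a low level and leukocytes at a high one.

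Promoter windows of RefSeq (GRCm38.p6, a build other than that of the counts; 250 bases before to 50 after a gene's start) were found for 8 of the 10 genes, in 9 windows. The stretches of H2-K1 (chr17:34000348-34000487, minus strand), H2-D1 (chr17:35262894-35263033, plus strand) and B2m (chr2:122147527-122147676, plus strand) are shown because these 3 genes form the class I molecule itself, and that of Tap1 (chr17:34187416-34187540, plus strand) because Tap1 and Psmb9 are read from it in opposite directions. Capitals mark matches, on either strand, to an NF-kB pattern (GGGA, any 4 bases, CC), the core bound by interferon regulatory factors (AANNGAAA), the CREB/ATF motif (TGACG) and the CCAAT box bound by NF-Y.
H2-K1: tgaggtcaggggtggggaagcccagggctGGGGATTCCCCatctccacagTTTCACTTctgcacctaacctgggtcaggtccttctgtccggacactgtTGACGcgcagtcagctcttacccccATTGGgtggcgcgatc
H2-D1: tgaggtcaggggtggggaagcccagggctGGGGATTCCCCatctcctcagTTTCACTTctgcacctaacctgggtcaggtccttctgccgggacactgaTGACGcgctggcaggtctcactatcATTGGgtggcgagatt
B2m: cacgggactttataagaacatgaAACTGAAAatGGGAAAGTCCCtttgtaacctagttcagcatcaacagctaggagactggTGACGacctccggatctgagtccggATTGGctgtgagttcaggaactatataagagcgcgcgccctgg
Tap1: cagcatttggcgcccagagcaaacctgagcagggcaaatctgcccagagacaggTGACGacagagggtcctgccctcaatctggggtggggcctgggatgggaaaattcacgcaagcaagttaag
The H2-K1 and H2-D1 stretches were identical at 127 of 140 bases (90.7%). In H2-K1, H2-D1 and B2m alike, TGACG was followed after exactly 20 bases by ATTGG, the CCAAT box on the other strand. This spacing was noticed in the sequences and then searched for. It occurred in 31 of 32851 windows (0.0944%), belonging to 27 genes, among them H2-M3, a nonclassical class I gene. The single patterns were common, present in 20.7% (the NF-kB pattern), 23.9% (AANNGAAA), 20.8% (TGACG) and 37.4% (CCAAT) of windows; the 2 matches to the NF-kB pattern in each of the H2-K1, H2-D1 and B2m windows overlap each other on opposite strands. The windows of Tap1 and Psmb9 shared 275 of their 300 bases. A match is a description of letters in the C57BL/6J reference, not of binding in these BALB/c tissues.

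Total counts ran from 15832837 to 19186615 per library. Zdhhc17 stood at 25.9 to 27.8 CPM (the read count scaled to the normalized size of the library) in the shZdhhc17 libraries and at 32.4 to 34.2 CPM in the shSCR libraries, without overlap. Its log2 fold change (shZdhhc17 minus shSCR) was -0.33 ± 0.11 (SE; adjusted p = 0.383, edgeR), which did not pass. Of all genes tested, 9.62% were without overlap on the lower side. The tissue was mixed in every library. Alb, the hepatocyte gene for albumin, stood at 7831 to 25533 CPM. Together 10 carcinoma epithelium markers, of which Lcn2 was the most abundant and several are keratins, stood at 2979 to 4546 CPM. Because Lcn2 leads this sum and went against most of the other markers, the sum is not a measure of carcinoma content. Library shSCR replicate 3 stood apart, with the 15 hepatocyte markers together at 30325 CPM against 58136 to 89917 CPM in the other libraries, so the members, the subunit ratios and the medians of the related lists are given with and without it, as are several single genes outside the members. Counts on the ribosomal RNA copy Rn18s-rs5 made up 2.54% of shSCR replicate 1 and 0.194% to 0.412% of the other libraries.

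All 10 genes had a lower mean in shZdhhc17 than in shSCR metastases, but no gene passed the test and the groups overlapped for each of them. What set the libraries apart was the control group. Library shSCR replicate 3 was the highest of the 6 for 10 of 10 genes, a position it held for 28.5% of all genes tested, and shSCR replicate 1 lay below at least 1 shZdhhc17 library for 10 of 10 genes and below all 3 for 9, B2m being the exception. The log2 fold changes (shZdhhc17 minus shSCR) ran from -0.99 to -0.31 with a median of -0.62, against a median of 0.0017 over the 15567 genes tested, of which 49.7% were negative. By edgeR's quasi-likelihood test 0 of 10 had an adjusted p under 0.05, where 0% of all genes did. Without adjustment 0 of 10 had a p under 0.05 as well, against 6.71% of all genes on the lower and 4.72% on the higher side, and 0 of 10 were free of overlap between the groups, against 9.62% on the lower side. The adjusted p-values of the 10 ran from 0.492 to 0.721.

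**Figure D1:**
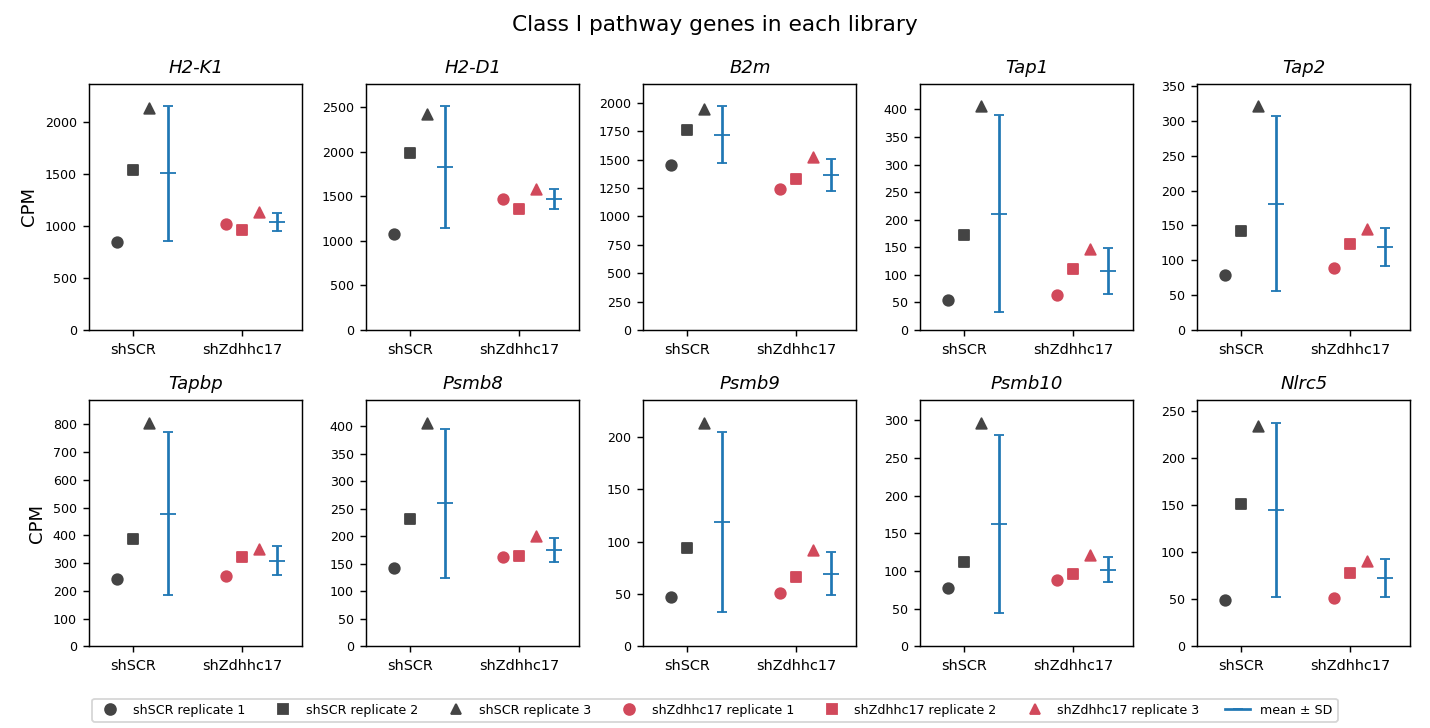
CPM (vertical axis, from 0, a separate scale per gene) of each of the 10 genes in the 6 libraries, by group; bars at the right of each group give the mean ± SD of 3 libraries. The shSCR libraries spread widely, with replicate 3 highest in each panel, while the 3 shZdhhc17 libraries lie close together and within the shSCR range for 9 of the genes, and partly below it for B2m.

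The class I heavy chains and B2m were the most abundant members. H2-K1 (ENSMUSG00000061232.17), a classical heavy chain, stood at 844, 1539 and 2143 CPM in shSCR replicates 1, 2 and 3 and at 1019, 960 and 1135 CPM in shZdhhc17 replicates 1, 2 and 3. The silenced libraries lay between the lowest control and the other two. The means were 1508 ± 650 and 1038 ± 88.9 CPM (SD, n = 3 each), a log2 fold change of -0.54 ± 0.34 (SE; adjusted p = 0.557, edgeR). H2-D1 (ENSMUSG00000073411.13), the other classical heavy chain with a row of its own, stood at 1079, 1981 and 2419 CPM in the shSCR libraries and 1473, 1353 and 1582 CPM in the shZdhhc17 libraries. Its arrangement was that of H2-K1, with a log2 fold change of -0.31 ± 0.32 (SE; adjusted p = 0.721, edgeR). B2m (ENSMUSG00000060802.9), the light chain shared by the heavy chains, varied least, at 1454, 1762 and 1951 CPM in shSCR and 1245, 1329 and 1525 CPM in shZdhhc17 libraries. It is the member in which 2 silenced libraries lay below every control, and only shZdhhc17 replicate 3 exceeded shSCR replicate 1. The log2 fold change of B2m was -0.33 ± 0.22 (SE; adjusted p = 0.575, edgeR). Class I heavy chains are a family of near-identical genes, and BALB/c mice carry other alleles than the C57BL/6J reference, so how reads were shared among H2-K1, H2-D1 and their relatives is uncertain. H2-L, a further heavy chain of BALB/c mice, was not analysed here.

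The peptide transporter genes and Tapbp varied more than the heavy chains. Tap1 (ENSMUSG00000037321.18), the first subunit of the transporter, stood at 55.1, 172 and 406 CPM in shSCR replicates 1, 2 and 3, a 7.38-fold range within the control group, and at 62.6, 110 and 147 CPM in the shZdhhc17 replicates. All 3 silenced libraries lay between shSCR replicates 1 and 2. The log2 fold change was -0.98 ± 0.65 (SE; adjusted p = 0.573, edgeR). Tap2 (ENSMUSG00000024339.13), the second subunit, stood at 78.8, 143 and 321 CPM in shSCR and at 89.5, 123 and 144 CPM in shZdhhc17 libraries, with a log2 fold change of -0.60 ± 0.47 (SE; adjusted p = 0.633, edgeR). Here shZdhhc17 replicate 3 was level with shSCR replicate 2. Tapbp (ENSMUSG00000024308.16), which holds the empty heavy chain next to the transporter, stood at 241, 386 and 806 CPM in shSCR and at 252, 324 and 351 CPM in shZdhhc17 libraries, a log2 fold change of -0.63 ± 0.41 (SE; adjusted p = 0.572, edgeR). The lowest library of each group was nearly alike. The difference of means rested on shSCR replicate 3, without which the log2 fold change of Tapbp was -0.024.

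The immunoproteasome subunits followed the same arrangement. Psmb8 (ENSMUSG00000024338.16; LMP7) stood at 142, 232 and 407 CPM in shSCR and 162, 165 and 201 CPM in shZdhhc17 libraries, a log2 fold change of -0.56 ± 0.35 (SE; adjusted p = 0.555, edgeR). Psmb9 (ENSMUSG00000096727.4; LMP2), whose promoter window overlaps that of Tap1, stood at 47.0, 94.5 and 214 CPM in shSCR and 50.9, 66.3 and 91.7 CPM in shZdhhc17 libraries, a log2 fold change of -0.77 ± 0.51 (SE; adjusted p = 0.573, edgeR). Psmb10 (ENSMUSG00000031897.10; MECL-1) stood at 78.0, 113 and 297 CPM in shSCR and 88.4, 96.7 and 121 CPM in shZdhhc17 libraries, a log2 fold change of -0.67 ± 0.46 (SE; adjusted p = 0.585, edgeR). For Psmb10 the silenced libraries straddled shSCR replicate 2, and shSCR replicate 3 alone stood far above the rest.

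Nlrc5 (ENSMUSG00000074151.14), the transactivator of class I genes, had the smallest p of the 10 and, level with Tap1 within their errors, the largest fold change. It stood at 49.3, 151 and 234 CPM in shSCR replicates 1, 2 and 3 and at 50.9, 77.6 and 90.5 CPM in the shZdhhc17 replicates. Both higher controls exceeded every silenced library, while shSCR replicate 1 was the lowest of all 6. The means were 145 ± 92.7 and 73.0 ± 20.2 CPM (SD, n = 3 each), with a log2 fold change of -0.99 ± 0.51 (SE; adjusted p = 0.492, edgeR). DESeq2 gave Nlrc5 an unadjusted p of 0.0380 and an adjusted p of 0.365; by that tool Nlrc5 was the 1 member of 10 with an unadjusted p under 0.05, against 6.4% of all genes on the lower side, and 0 of 10 passed with adjustment, against 1.46% of genes. With the replicate number as a block, Nlrc5 was again the 1 member of 10, against 6.48% of genes. In the authors' deposited table, Nlrc5 had a log2 fold change of -0.97 and a q of 0.378, and 0 of the 10 genes had a q under 0.05, against 0.844% of all genes listed there.

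The members differed in how far they varied. The highest library exceeded the lowest by 1.57-fold for B2m, 2.24-fold for H2-D1 and 2.54-fold for H2-K1, but by 4.55-fold for Psmb9, 4.75-fold for Nlrc5 and 7.38-fold for Tap1. The coefficient of variation within shSCR ran from 14.6% (B2m) to 84.7% (Tap1) with a median of 62.6% over the members, against a median of 17.4% over all genes tested. Within shZdhhc17 it ran from 7.78% (H2-D1) to 39.8% (Tap1), with a median of 16.6% against 14.9% over all genes tested. It was higher in shSCR than in shZdhhc17 for 10 of 10 members, a difference in spread between 2 groups of 3 that was not tested.

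**Figure D2:**
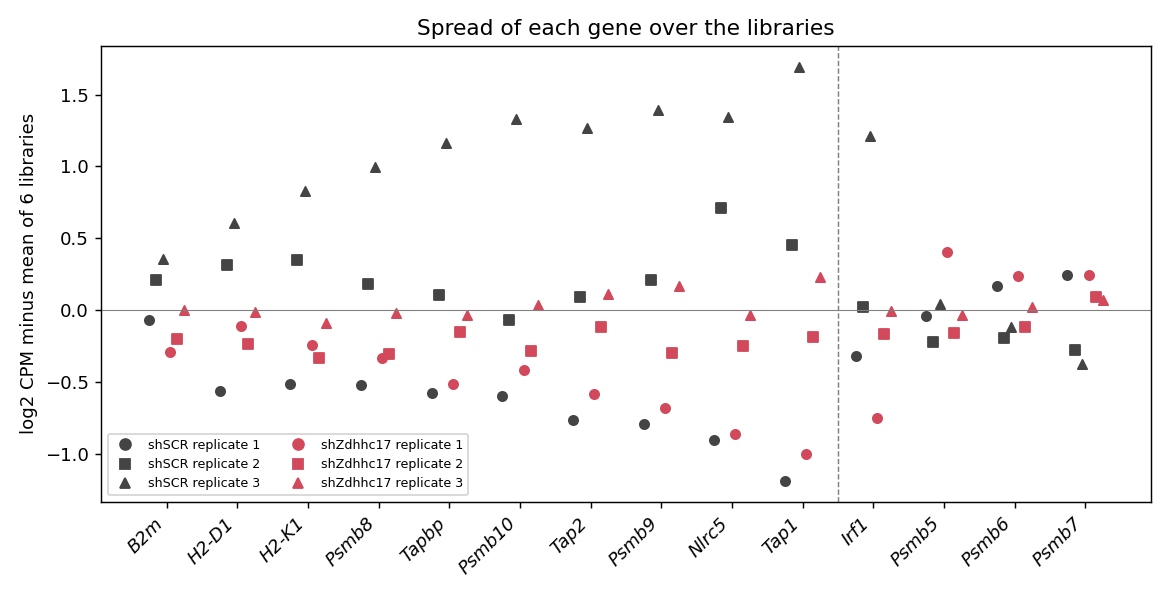
Log2 CPM of each library minus the mean of the 6 libraries, for the 10 members ordered by their range (left of the dashed line) and for the transcription factor gene Irf1 and the constitutive subunit genes Psmb5, Psmb6 and Psmb7 (right). Replicate 3 of shSCR is the top point for all members and for Irf1, the range grows from 1.57-fold for B2m to 7.38-fold for Tap1, and the constitutive subunits keep within a narrow band in a different order.

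Ordered by level per length (CPM per kilobase of annotated exons), B2m came first at a mean of 1796 over the 6 libraries, followed by H2-D1 at 639, H2-K1 at 433, Tapbp at 108, Psmb10 at 77.6, Psmb8 at 64.5, Tap2 at 39.7, Tap1 at 29.0, Psmb9 at 25.7 and Nlrc5 at 12.8. Neighbours in this order kept it in 6 of 6 libraries except Psmb10 over Psmb8 (5 of 6) and Tap1 over Psmb9 (4 of 6), pairs whose levels cannot be ranked with confidence. These counts cover variation between libraries only, and do not make the other places firm. The lengths are those of all annotated exons in GENCODE vM21 (GRCm38), such as 860 bases for B2m and 3660 for Psmb9. They exceed the length of any single transcript by a share that may differ between genes and was not measured. The order depends on these lengths.

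The immunoproteasome was also set against the constitutive subunits it replaces, as a log2 ratio of counts that needs no library scaling. The constitutive genes themselves had small log2 fold changes of 0.16 ± 0.18 for Psmb5, 0.096 ± 0.16 for Psmb6 and 0.24 ± 0.18 for Psmb7 (SE), none of which passed. The Psmb9 to Psmb6 log2 ratio was -1.67, -0.31 and 0.80 in shSCR replicates 1, 2 and 3, and -1.63, -0.90 and -0.57 in shZdhhc17 replicates 1, 2 and 3. Psmb9 thus made up 23.9% of the pair's counts in shSCR replicate 1 and 63.4% in shSCR replicate 3, with the silenced libraries between 24.4% and 40.3%. The difference of means was -0.64 (exact two-sided permutation p = 0.5). The Psmb8 to Psmb5 log2 ratio was 2.77, 3.66 and 4.20 in shSCR and 2.51, 3.10 and 3.26 in shZdhhc17 libraries, a difference of -0.58 (exact permutation p = 0.3). The Psmb10 to Psmb7 log2 ratio was -0.69, 0.36 and 1.86 in shSCR and -0.51, -0.22 and 0.12 in shZdhhc17 libraries, a difference of -0.71 (exact permutation p = 0.5). Adjusted over the 3 ratios each p was 0.5, and 3 libraries against 3 cannot give less than 0.1. The ratios overlapped between the groups, and in each of them shSCR replicates 2 and 3 lay above all silenced libraries. Without shSCR replicate 3 the differences shrank to -0.25 (Psmb8), -0.042 (Psmb9) and -0.038 (Psmb10), and without shSCR replicate 1 they were -0.97, -1.28 and -1.31.

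**Figure D3:**
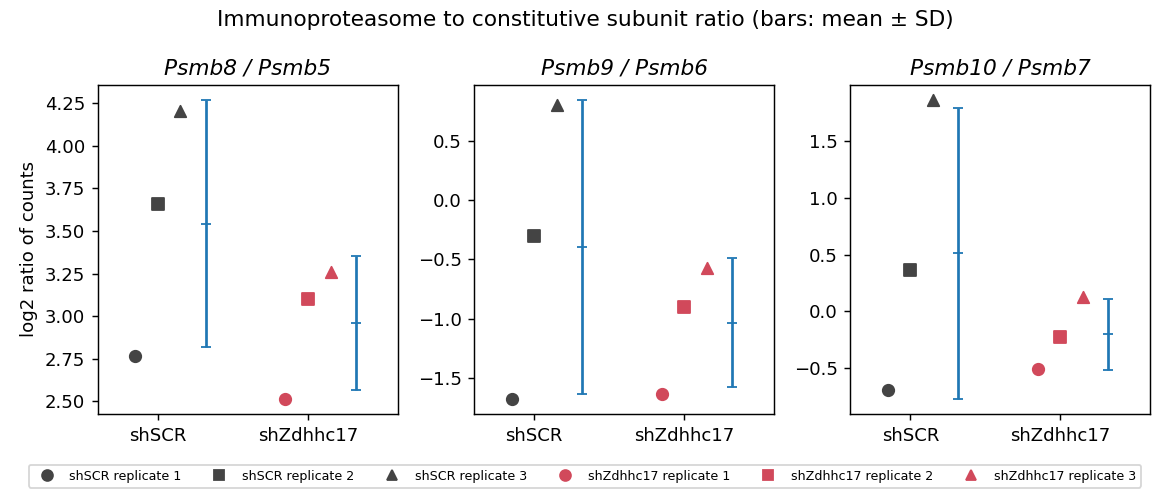
Log2 ratio of the counts of each immunoproteasome subunit to the constitutive subunit it replaces (vertical axis, a separate scale per pair), by library and group, with mean ± SD of 3 libraries. In each pair 2 control libraries lie above the silenced ones and 1 lies among or below them; exact permutation p = 0.3, 0.5 and 0.5.

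The size of the fold changes, apart from that of B2m, turned on which control library was present. For B2m it was -0.44 without shSCR replicate 1 and -0.24 without shSCR replicate 3. It moved about as far without a silenced library, to -0.26 without shZdhhc17 replicate 1 and -0.42 without shZdhhc17 replicate 3. Without shSCR replicate 3 the median of the 10 went from -0.62 to -0.074, 8 of 10 stayed negative, and Tap2 and Psmb10 had log2 fold changes of 0.10 and 0.096. Nlrc5 kept the largest value, at -0.46 (edgeR adjusted p = 0.849), and 0 of 10 genes had an unadjusted p under 0.05, against 4.23% of all genes on the lower side. Without shSCR replicate 1 the median was -0.95, and the values ran from -0.44 (B2m) to -1.44 (Tap1). In that fit 8 of 10 genes, all but H2-D1 and B2m, had an unadjusted p under 0.05, against 11.1% of all genes on the lower side, and 8 of 10 lay without overlap below the controls, against 20.4%. The count without overlap was fixed by the order of the libraries, since shSCR replicate 2 exceeded all silenced libraries for 8 of 10 genes and shSCR replicate 3 for all. The 10 genes moved together across the libraries and are not separate observations, so neither count is a test of the group. None passed with adjustment, the smallest edgeR adjusted p being 0.165, for Nlrc5.

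**Figure D4:**
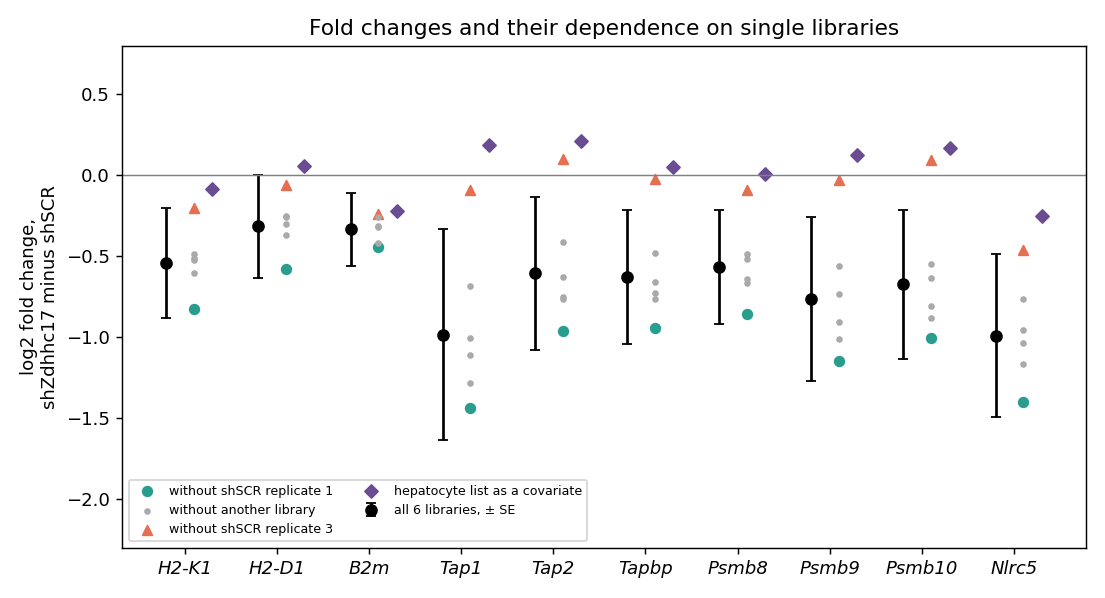
Log2 fold change (shZdhhc17 minus shSCR, vertical axis) of each member with all 6 libraries (black, ± SE), without each library in turn, and with the mean level of the hepatocyte markers as a covariate. Values without shSCR replicate 1 lie lowest, those without shSCR replicate 3 lie near 0 except for Nlrc5, B2m and H2-K1, and the covariate moves 7 of 10 members to 0 or above.

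Markers of some other cell types were arranged wholly or in part like the members across the libraries, and those of others were not. The 12 T cell markers together stood at 14.4, 54.6 and 59.2 CPM in shSCR replicates 1, 2 and 3 and at 12.01 to 23.4 CPM in shZdhhc17 libraries, and 0 of 12 were at 0 in any library. The 8 natural killer markers stood at 8.99, 34.8 and 50.2 CPM in shSCR and at 7.80 to 23.8 CPM in shZdhhc17 libraries. The 8 dendritic cell markers stood at 50.5, 91.7 and 117 CPM in shSCR and at 29.8 to 47.4 CPM in shZdhhc17 libraries. Of them 8 of 8 were negative, with a median log2 fold change of -0.94, and unlike the members their sums did not overlap between the groups. The 2 controls with high class I levels were thus those with high T cell, natural killer and dendritic cell markers. Without shSCR replicate 3 the median log2 fold changes were -0.55 for T cell, -0.46 for natural killer and -0.75 for dendritic cell markers. The 10 stellate cell and fibroblast markers were highest in shSCR replicate 3 as well, at 9345 CPM against 3935 to 5843 CPM elsewhere. The 7 B cell markers were not so arranged, at 5.23, 11.04 and 5.41 CPM in shSCR and 5.47, 12.5 and 13.9 CPM in shZdhhc17 libraries, with 7 of 7 positive (median 0.43). The 10 neutrophil markers stood at 142, 334 and 107 CPM in shSCR and 609, 409 and 843 CPM in shZdhhc17 libraries, with 9 of 10 positive (median 1.99). Of the 10 carcinoma epithelium markers 8 were negative (median -0.49), at 4138, 2979 and 3380 CPM together in shSCR and 4546, 3569 and 3187 CPM in shZdhhc17 libraries. Their most abundant gene, Lcn2, went the other way (log2 fold change 1.05 ± 0.37, SE), so the sum is not a measure of carcinoma content. The macrophage markers stood at 963 to 1289 CPM in shSCR and 1019 to 1299 CPM in shZdhhc17 libraries, and the endothelial markers at 461 to 540 CPM and 427 to 602 CPM. By edgeR no gene of these marker lists passed; DESeq2 called Itgax among the dendritic cell markers, and S100a9 and Mmp8 among the neutrophil markers. The 8 pan-leukocyte markers, led by Laptm5, stood at 332, 564 and 680 CPM in shSCR and 466 to 551 CPM in shZdhhc17 libraries. With their mean level as a covariate 10 of 10 members stayed negative with a median of -0.50, and 4 of 10 (Nlrc5, Tap1, Psmb9 and Psmb8) had an unadjusted p under 0.05, against 8.86% of all genes on the lower side, but none passed with adjustment (smallest edgeR adjusted p = 0.182). Hepatocyte markers moved the other way, lowest in shSCR replicate 3, and with their mean level as a covariate 3 of 10 members (H2-K1, B2m and Nlrc5) stayed negative, with a median of 0.055, and 0 of 10 had an unadjusted p under 0.05, against 4.99% of genes on the lower side. Library shSCR replicate 3 was at once lowest in hepatocyte markers, highest in pan-leukocyte markers and highest for 10 of 10 members. The 2 covariate fits therefore cannot separate cell content from that library, and the part of cell content in the class I values was not tested.

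Some signals upstream of the pathway were arranged like the members and others were not: of 10 tested interferon ligand, receptor and signalling genes, 6 had shSCR replicate 3 as the highest library. Ifng, the gene for interferon gamma, was at 0, 0.575 and 3.24 CPM in shSCR replicates 1, 2 and 3 and at 0, 0.358 and 0.330 CPM in shZdhhc17 replicates 1, 2 and 3, too few counts to be tested. Irf1, a transcription factor of class I promoters, stood at 153, 193 and 441 CPM in shSCR and 113, 170 and 190 CPM in shZdhhc17 libraries, with a log2 fold change of -0.74 ± 0.41 (SE; adjusted p = 0.515, edgeR). In Irf1, as in the members, shSCR replicate 3 was highest and the groups overlapped; without that library the log2 fold change was -0.14. Ciita, the relative of Nlrc5 that drives class II genes, stood at 7.85, 46.3 and 73.4 CPM in shSCR and 5.35, 22.4 and 28.6 CPM in shZdhhc17 libraries (log2 fold change -1.18 ± 0.81, SE; adjusted p = 0.586 by edgeR, and -0.53 without shSCR replicate 3). Jak1, which works beside Jak2 at that receptor, was lowest in shSCR replicate 3, at 193, 194 and 153 CPM in shSCR and 181, 231 and 217 CPM in shZdhhc17 libraries. Jak2, a kinase of the interferon gamma receptor, stood at 138, 144 and 166 CPM in shSCR and at 85.5, 88.3 and 96.9 CPM in shZdhhc17 libraries, without overlap. Its log2 fold change was -0.73 ± 0.13 (SE; adjusted p = 0.307, edgeR), which did not pass over all genes. DESeq2 called Jak2 (adjusted p = 0.00124), and in the authors' deposited table its q was 0.00344. Ifnar1, a receptor subunit for type I interferons, was also without overlap, at 88.8, 92.8 and 90.2 CPM in shSCR and 72.8, 88.0 and 87.1 CPM in shZdhhc17 libraries, with a log2 fold change of -0.13.

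Of these 10 genes 0 passed by edgeR and 1, Jak2, by DESeq2, 7 were negative, and the median log2 fold change was -0.22 (-0.13 without shSCR replicate 3). Stat2 had -0.93 ± 0.41 (SE), and -0.47 without that library. In the lists that follow, passing refers to edgeR, and the second median given is the one without shSCR replicate 3. Among 7 transcription factors of class I promoters 0 passed and 6 were negative (median -0.22; -0.032), with -0.70 ± 0.42 (-0.17 without shSCR replicate 3) for Irf8 and -0.26 ± 0.14 for Relb. Among 7 brakes on interferon signalling 0 passed and 5 were negative (median -0.17; -0.059). Of these, Socs1, an inhibitor of the Jak kinases, stood at 5.67, 15.95 and 116 CPM in shSCR and 7.61, 12.3 and 18.8 CPM in shZdhhc17 libraries (-1.83 ± 0.99, SE), so that its fold change rested on shSCR replicate 3, without which it was 0.25. Usp18 had -0.70 ± 0.38 (-0.17 without that library) and Ptpn2 -0.20 ± 0.13 (SE). The 8 partners of Nlrc5 at promoters had a median of -0.18 (-0.072), with 6 negative and 0 past the threshold. The RFX subunit gene Rfxank stood at 16.6, 14.9 and 15.7 CPM in shSCR and 10.9, 12.2 and 12.3 CPM in shZdhhc17 libraries, without overlap (-0.41 ± 0.14, SE; edgeR adjusted p = 0.383), and Rfxap and Nfya had -0.29 ± 0.15 and -0.32 ± 0.15 (SE).

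The list of other heavy chains split, largely by kind of gene. Of 18 tested class I and class I-like heavy chain genes 0 passed, 12 were negative and 6 positive, with a median of -0.23 (-0.073 without shSCR replicate 3). The positive genes were the class I-like Cd1d1, Cd1d2, Fcgrt and Hfe, with H2-Q10 and H2-Bl. Every other tested gene with an H2 symbol on the list was negative, as was Mr1. H2-T22, a nonclassical heavy chain, stood at 99.2, 160 and 225 CPM in shSCR and 87.6, 107 and 122 CPM in shZdhhc17 libraries (log2 fold change -0.61 ± 0.29, SE; edgeR adjusted p = 0.467). H2-Q4, one of the 2 most abundant of the list, stood at 264, 559 and 796 CPM in shSCR and 367, 339 and 406 CPM in shZdhhc17 libraries, overlapping as H2-K1 did. H2-Q10, a secreted heavy chain made in the liver, was about as abundant and arranged otherwise, at 505, 458 and 314 CPM in shSCR and 313, 552 and 518 CPM in shZdhhc17 libraries. Without shSCR replicate 3 the log2 fold changes were -0.30 for H2-T22, -0.15 for H2-Q4 and -0.36 for H2-K2. H2-K2 had -0.73 ± 0.36, and Cd1d2, a lipid-presenting relative at 0.784 to 2.51 CPM, had 0.72 ± 0.40 (SE). Of 14 genes for receptors that read class I or are related to such receptors, 11 had a row and 6 were tested. By edgeR 0 passed and by DESeq2 1, Lilrb4a, and 5 were negative (median -0.76, and -0.52 without shSCR replicate 3). Cd8a, the T cell coreceptor for class I, stood at 0.327, 9.15 and 4.35 CPM in shSCR and 0.377, 1.43 and 0.725 CPM in shZdhhc17 libraries (-2.43 ± 1.00, SE; edgeR adjusted p = 0.423), and Klrc1, the inhibitory NKG2A receptor, had -1.53 ± 0.95 (SE). Lilrb4a, an inhibitory receptor of myeloid cells, stood at 40.3, 51.9 and 42.6 CPM in shSCR and 20.1, 27.9 and 25.9 CPM in shZdhhc17 libraries, without overlap (-0.87 ± 0.17, SE; edgeR adjusted p = 0.307). DESeq2 gave Lilrb4a an adjusted p of 0.0114, and the authors' deposited table a q of 0.0158. Whether Lilrb4a binds class I cannot be told from these data. Among 7 cross-presentation genes 0 passed and 5 were negative (median -0.098; 0.0046), the lowest being Clec9a, Batf3 and Xcr1 of type 1 dendritic cells with -1.13 ± 0.52, -0.95 ± 0.57 and -0.93 ± 0.52 (SE). Without shSCR replicate 3 Batf3 was at 0.0046.

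The general machinery of protein turnover and folding lay on the other side of 0 or near it. For comparison, the 2072 tested genes at or above the lowest mean CPM of a member had a median log2 fold change of 0.072. The medians below differ less from that value than from the members' median. Of 18 tested genes of the 19S particle, which feeds proteins into the proteasome, 17 were positive and 0 passed (median 0.16; 0.15), with 0.47 ± 0.15 for Psmd1, 0.42 ± 0.15 for Psmd13 and 0.42 ± 0.15 for Psmd8 (SE). Psmd1 stood at 115, 94.7 and 83.6 CPM in shSCR and 137, 137 and 131 CPM in shZdhhc17 libraries, without overlap (edgeR adjusted p = 0.367). The 11 other subunits of the 20S core had a median of 0.11 (0.14) with 9 positive and 0 passed, among them Psma7 at 0.32 ± 0.18 (SE), Psma6 at 0.18 ± 0.19 and Psmb3 at 0.13 ± 0.18. Of 10 activators and assembly factors 5 were positive, 5 negative and 0 passed (median -0.0029; 0.12), with 0.24 ± 0.12 for Psme3, 0.25 ± 0.15 for Psme4 and -0.28 ± 0.23 for Psme1 (SE), an interferon-inducible subunit of the PA28 activator whose value was 0.0037 without shSCR replicate 3. Among 13 tested genes of peptide trimming and loading 8 were positive and 0 passed (median 0.046; 0.14). They include the aminopeptidase gene Npepps at -0.39 ± 0.13, Thop1, which destroys peptides in the cytosol, at 0.30 ± 0.12, and the hydrolase gene Blmh at 0.25 ± 0.13 (SE). Of 8 tested genes known to restrain class I, 3 were positive and 0 passed (median -0.020; 0.030), Marchf9 having -0.37 ± 0.27 and Tmem127 -0.090 ± 0.12 (SE).

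**Figure D5:**
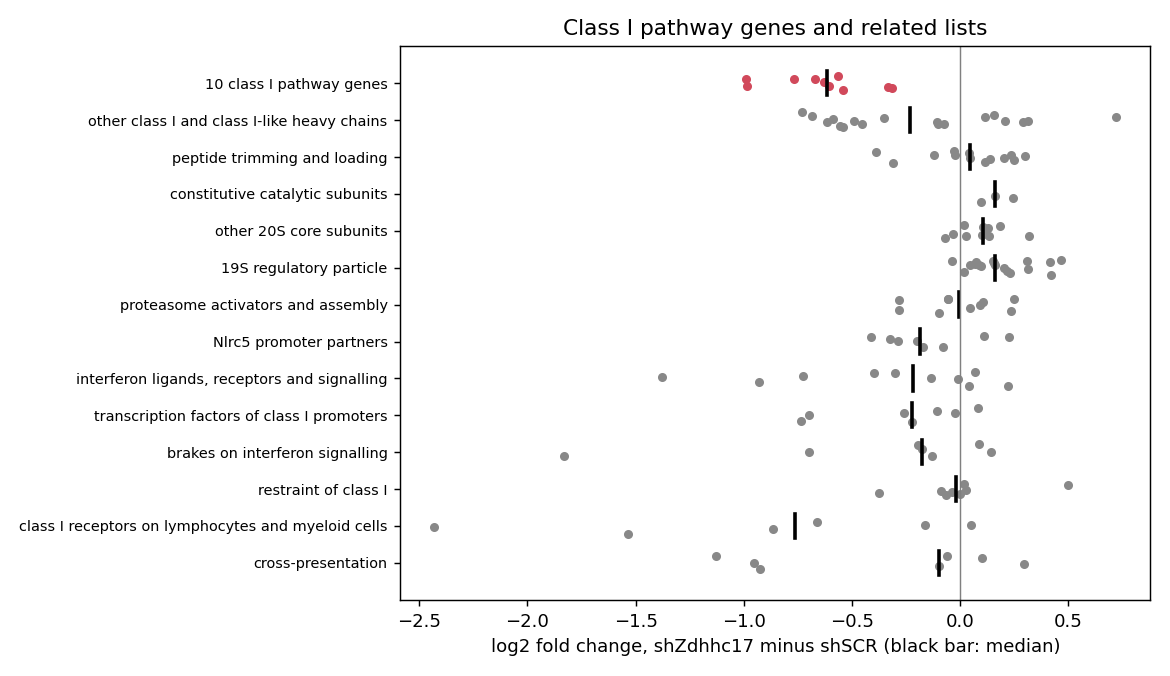
Log2 fold change (shZdhhc17 minus shSCR, horizontal axis) of each tested gene (points) in the 10 members and 13 related lists, with the median of each list as a black bar. The members lie wholly below 0 (median -0.62), the 19S particle mostly above (median 0.16), and in no list did a gene pass by edgeR; DESeq2 called Jak2 and Lilrb4a.

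The genes most like the members across the 6 libraries were sought among genes with a mean of at least 10 CPM, by Pearson's r with the mean of the members' standardised log2(CPM + 1). They were Ehbp1l1 (r = 0.998), Ppp2r5b (0.997), Arhgap45 (0.997), Samhd1, a nucleotide-cleaving antiviral enzyme (0.996), and Ly6a, the Sca-1 surface protein (0.995). With 6 libraries, and as the closest of many genes, these values only describe a shared arrangement; without shSCR replicate 3 they were 0.974 to 0.990 over 5 libraries. Ly6a stood at 13.0, 83.8 and 327 CPM in shSCR replicates 1, 2 and 3 and at 16.04, 21.7 and 36.0 CPM in shZdhhc17 replicates 1, 2 and 3, a wider range than any member, while Ehbp1l1 stood at 66.1 to 111 CPM in all 6, about as narrow as B2m.

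The authors' deposited enrichment table holds several sets named for this pathway. Antigen processing and presentation (KEGG, 59 genes) had a normalized enrichment score of -1.77 with a q of 0.175 in the authors' deposited table, where 4 of the 10 members were in the leading edge. Folding, assembly and peptide loading of class I (Reactome, 27 genes) had -1.05 (q = 0.786), and class I mediated antigen processing as a whole (Reactome, 364 genes), had 0.77 (q = 1) in the authors' deposited table. Interferon gamma signalling (Reactome, 95 genes) had -1.86 (q = 0.0278) there, with 1 member in its leading edge. The hallmark set for the response to interferon gamma (210 genes) had -1.66 (q = 0.0821) in the authors' deposited table, with 6 members in its leading edge. These sets were picked by name.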

How the data were processed

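Polyadenylated RNA of 6 libraries was sequenced from a stranded kit. The authors deposited raw counts per gene, whole numbers without normalization. The build is GRCm39, and the tools listed are STAR 2.6.1, FastQC 0.11.8, DESeq2 1.34.0 and HTSeq, per the submitters' processing notes, which assign no roles; whether HTSeq counted by strand is not stated in the sources used. The authors also deposited log2 fold changes with p-values and q-values from DESeq2, a ranking score (not used here), and gene set enrichment scores with p-values, per the file headers and their description, which names another contrast than the tables do.

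Counts were tested with edgeR 4.0.16 (R 4.3.3; quasi-likelihood with robust estimation, two-sided, TMM, filterByExpr, 15567 of 24167 genes, Benjamini-Hochberg adjusted p under 0.05); standard errors come from the fold change and its F statistic. DESeq2 1.42.0 and voom of limma 3.58.1 were alternatives, with other scalings and filters, 2 covariates, a replicate block and the loss of each library. The script was tested on simulated data. Groups came from the sample titles. With 3 libraries a group, precision is set by the spread between libraries; the lowest member count in a library is 810. CPM use TMM library sizes. Lengths come from GENCODE vM21.

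The members and the gene lists were chosen with earlier results of these data known. Of 258 listed genes, 9 were not matched. Named are the members, Zdhhc17, Ifng, Irf1, Ciita, Cd8a, the constitutive catalytic subunits, up to 3 genes of each pathway list with the smallest p, the most abundant marker of each cell type list used, and the 5 genes most like the members. Further genes named for their level, for their direction or as examples (H2-Q4, H2-Q10, H2-Bl, H2-M3, Cd1d1, Fcgrt, Hfe, Mr1, Jak1, Ifnar1, Rn18s-rs5) were chosen after their values were seen. Some results of the named-gene rule are not reported here.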

Additional observations from a re-analysis of the deposited data

How the results depend on the processing

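Over all genes edgeR called 0 of 15567, with 1780 at an unadjusted p under 0.05. The count was 214 with DESeq2, 3 without a filter on low counts, 2 with the hepatocyte markers as a covariate, 0 with limma voom, and 0 to 1 without a single library. The count of members past the threshold was 0 under each of 16 alternatives. The members' median of -0.62 ran from -0.80 (library totals alone, which moved the median of all genes to -0.13) to 0.055 (hepatocyte covariate) and, without a single library, from -0.95 to -0.074. With the hepatocyte covariate the log2 fold change turned positive for H2-D1 (0.057), Tap1 (0.19), Tap2 (0.21), Tapbp (0.052), Psmb8 (0.0070), Psmb9 (0.12) and Psmb10 (0.17), and without shSCR replicate 3 for Tap2 (0.10, the highest value without a single library, the lowest being -0.96) and Psmb10 (0.096, the lowest being -1.003); the cause was not tested. The other fits left all 10 negative. Over all genes tested, libraries of the same replicate number did not regularly deviate together (correlations -0.059, 0.32 and -0.046). Those of different numbers ran from -0.40 to 0.30. With 3 libraries a group these values cannot decide whether the numbers mark pairs, and the main fit did not pair them. The members' mean standardised log2(CPM + 1) did rise with replicate number in both groups. It was -0.96, 0.43 and 1.68 in shSCR and -0.76, -0.43 and 0.029 in shZdhhc17 replicates 1, 2 and 3. Whether the numbers mark pairs was not tested. With the replicate block 0 genes and 0 members passed, the members' median was -0.44, and the ratio differences stayed at -0.58, -0.64 and -0.71 (exact permutation p = 0.25, 0.5 and 0.5, over sign changes of the 3 differences). The block lowered the SE of the members other than B2m and H2-D1, for Tap1 from 0.65 to 0.34. Among 13 related lists, whose medians without shSCR replicate 3 were computed after seeing the data, the sign turned for proteasome activators and assembly (0.12), restraint of class I (0.030) and cross-presentation (0.0046).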
